A study of Arabidopsis thaliana with 18 samples.

Results

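The 10 genes described here make and regulate indole glucosinolates in Arabidopsis thaliana. They are the transcription factor genes MYB34 (AT5G60890) and MYB51 (AT1G18570), the early enzymes CYP79B2 (AT4G39950), CYP79B3 (AT2G22330) and CYP83B1 (AT4G31500), the hydroxylase genes CYP81F1 (AT4G37430), CYP81F2 (AT5G57220), CYP81F3 (AT4G37400) and CYP81F4 (AT4G37410), and the methyltransferase gene IGMT1 (AT1G21100). They were taken by locus, 10 of the 21430 probe sets that carry a locus name, and all 10 were on the array. The set was proposed because CYP81F1 was higher and IGMT1 lower in induced seedlings than in mock seedlings, so values of the 10 genes against mock are a description. Counts of calls against mock are printed beside their background, with no p-value, and support nothing. CYP81F1 appears as CYP91A2 in RefSeq.

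Indole glucosinolates are defence compounds of the cabbage order made from tryptophan. MYB34 and MYB51 switch on the pathway, CYP79B2 and CYP79B3 turn tryptophan into indole-3-acetaldoxime, and CYP83B1 commits the aldoxime to glucosinolates, while the same aldoxime can also feed auxin and camalexin. The finished indole glucosinolate is then hydroxylated on its ring by CYP81F enzymes, CYP81F1 to CYP81F3 at the 4-position and CYP81F4 at the 1-position, and O-methylated by IGMT enzymes.

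Whole seedlings of 5 lines were studied, each with a fusion of a PLETHORA (PLT) transcription factor and the hormone-binding part of the glucocorticoid receptor (GR), driven by the constitutive 35S promoter. Dexamethasone (dex) lets such a fusion enter the nucleus. Seedlings 4 days old were placed in liquid medium overnight, about 50 to a flask, and held for 6 h with the added agent. The groups were the 35S-PLT1-GR line with 10 µM dex (3 libraries), the 35S-PLT3-GR line with 10 µM dex (2 libraries), the 35S-PLT4-GR, 35S-PLT5-GR and 35S-PLT7-GR lines with 10 µM dex (3 libraries each), and the 35S-PLT4-GR line with an equal amount of DMSO as mock (4 libraries). The PLT4 line alone had a mock of its own genotype, so in the other 4 lines genotype and treatment differ together from mock, and dex without a fusion protein was not among the groups. All comparisons with mock share the same 4 mock libraries. Replicates were flasks of the same seedling stock, and p-values measure the spread between those flasks. The protocol lists fewer mock flasks than there are mock libraries, so the flask of each mock library is not settled. The fusion is present throughout the plant, and in RNA from whole seedlings a change in the number of cells of a type and a change in RNA per cell cannot be told apart.

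Values are log2 hybridisation signals, and array medians lay between 5.70 and 5.80. The probe set of the induced PLT gene stood high in its own line in every library but 1. The library labelled PLT1 replicate 3 had 3.5 for PLT1, against 11.00 and 11.08 in PLT1 replicates 1 and 2, and 10.28 for PLT2, where the other 17 libraries had 3.67 to 6.07. Its mean correlation with its own group over all probe sets was 0.968, and its actin 3′ minus 5′ signal was 2.67 where the others had 1.08 to 1.64. It goes against its label but is kept under it, and the main results on the PLT1 line are also given without it. The PLT4 probe set stood at 10.67 to 10.82 in the PLT4 line with dex and at 11.41 to 11.58 in mock, which is the same line. Of the shoot markers 1 of 4 was measured, CA1, which lay between 11.36 and 11.84 in dex libraries and between 12.31 and 12.54 in mock. All 4 root markers were measured, and in the mean of the 5 lines CASP1 fell by 2.34 ± 0.21 and COBL9 by 0.59 ± 0.05, SHR rose by 0.73 ± 0.11, and TIP2;3 did not pass (-0.42 ± 0.18). The part of tissue make-up in the results below was not tested.

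In the mean of the 5 dex lines against mock, CYP81F1, MYB34 and CYP83B1 stood highest of the 10 genes and IGMT1 lowest. CYP81F1 was 12.1-fold higher, MYB34 4.47-fold and CYP83B1 4.34-fold higher, and IGMT1 was 5.39-fold lower. In limma, with Benjamini-Hochberg adjustment over all probe sets at 0.05, 6 of the 10 were called higher and 2 lower, in a contrast in which 45.4% of all probe sets were called (23% higher and 22.5% lower). CYP81F1, MYB34 and CYP83B1 lay above every mock library in all 14 dex libraries, which held for 10.4% of probe sets, and IGMT1 lay below every mock library in all 14, which held for 9.45%. By line, 7 were called higher and 2 lower in PLT1 (background 48.3% either way), 3 and 3 in PLT3 (25.6%), 4 and 1 in PLT4 (33.7%), 3 and 2 in PLT5 (22.9%) and 5 and 3 in PLT7 (43.2%). Without the library labelled PLT1 replicate 3, PLT1 minus mock was 3.86 ± 0.11 for CYP83B1, 2.62 ± 0.21 for CYP81F2, -1.04 ± 0.13 for MYB51 and -3.25 ± 0.19 for IGMT1. The median log2 difference was 0.55 over the 10 genes and 0.00 over all probe sets.

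**Figure D1:**
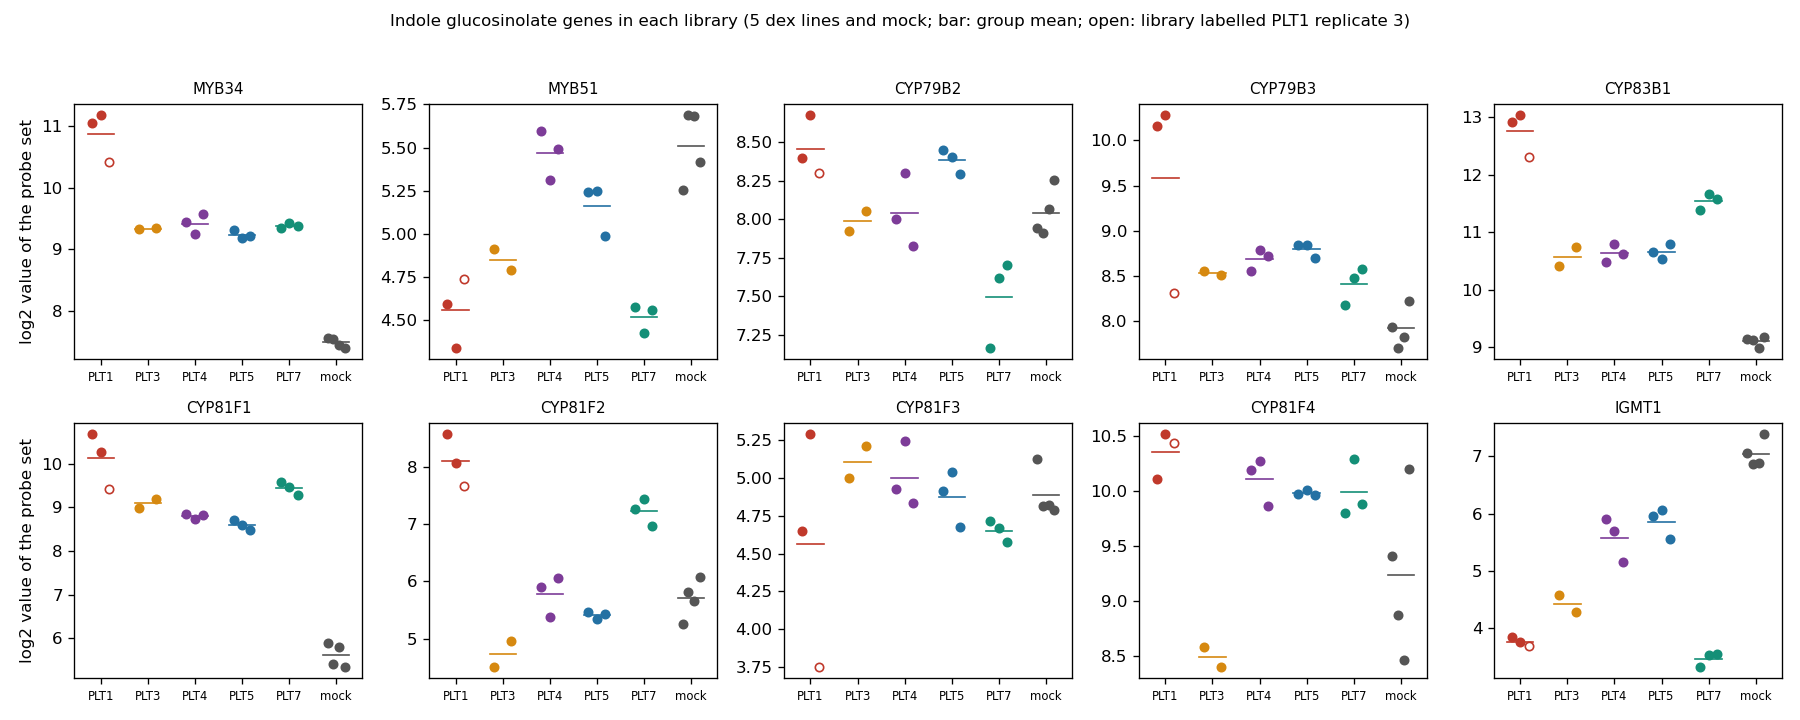
Log2 value of each of the 10 genes (1 panel a gene) in each library, by group from left to right PLT1, PLT3, PLT4, PLT5 and PLT7 with dex and then mock. Points are libraries, bars are group means, and the open point is the library labelled PLT1 replicate 3. CYP81F1 runs from 8.47 to 10.67 in dex libraries against 5.35 to 5.89 in mock.

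MYB34, a regulator of the route that is active mainly in roots, was higher in each dex line than in mock. Its log2 values were 11.04, 11.17 and 10.41 in PLT1 libraries, 9.33 and 9.34 in PLT3, 9.43, 9.25 and 9.57 in PLT4, 9.32, 9.18 and 9.21 in PLT5 and 9.34, 9.42 and 9.38 in PLT7, against 7.56, 7.54, 7.45 and 7.41 in mock. The 3 PLT1 libraries stood above all others, the 11 remaining dex libraries formed a narrow band, and none touched the mock range. Within the PLT4 line, where genotype is shared, the log2 difference from mock was 1.93 ± 0.13 (SE), or 3.80-fold. The PLT1 line differed from mock by 3.38 ± 0.13, or by 3.62 ± 0.09 without the library labelled PLT1 replicate 3, and the other 3 lines by 1.75 to 1.89.

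MYB51, the regulator known mainly from shoots and from defence responses, did not follow MYB34. Its values were 4.59, 4.34 and 4.74 in PLT1, 4.91 and 4.79 in PLT3, 5.60, 5.31 and 5.49 in PLT4, 5.24, 5.25 and 4.99 in PLT5 and 4.58, 4.43 and 4.56 in PLT7, against 5.25, 5.69, 5.69 and 5.42 in mock. PLT1, PLT3, PLT5 and PLT7 libraries lay below the mock range, and the PLT4 libraries lay inside it. The log2 difference from mock was -0.95 ± 0.12 in PLT1 and -0.99 ± 0.12 in PLT7, while in the PLT4 line it was -0.04 ± 0.12. All of these values lie below the array medians, where RMA compresses differences.

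CYP79B2 and CYP79B3 catalyse the same first step and had unlike values. CYP79B2 had 8.40, 8.67 and 8.30 in PLT1, 7.92 and 8.05 in PLT3, 8.0, 8.30 and 7.83 in PLT4, 8.45, 8.40 and 8.29 in PLT5 and 7.17, 7.62 and 7.70 in PLT7, against 7.94, 7.91, 8.07 and 8.25 in mock. PLT1 and PLT5 libraries lay above the mock range, PLT7 libraries below it, and PLT3 and PLT4 overlapped it. The mean of the 5 lines differed from mock by 0.03 ± 0.10.

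CYP79B3 had 10.16, 10.28 and 8.31 in PLT1, 8.55 and 8.51 in PLT3, 8.56, 8.79 and 8.72 in PLT4, 8.84, 8.84 and 8.70 in PLT5 and 8.18, 8.48 and 8.58 in PLT7, against 7.94, 7.71, 7.82 and 8.22 in mock. PLT1 replicates 1 and 2 stood apart at the top, and the library labelled PLT1 replicate 3 lay among the other lines. All dex libraries but PLT7 replicate 1 lay above the mock range. The log2 difference between the mean of the dex lines and mock was 0.88 ± 0.24, and 1.01 ± 0.08 without the library labelled PLT1 replicate 3. In the PLT1 line it was 1.66 ± 0.32 with that library and 2.30 ± 0.13 without it.

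CYP83B1, the enzyme that takes the aldoxime into glucosinolates, had 12.91, 13.03 and 12.31 in PLT1, 10.41 and 10.74 in PLT3, 10.48, 10.79 and 10.62 in PLT4, 10.65, 10.54 and 10.79 in PLT5 and 11.38, 11.66 and 11.57 in PLT7, against 9.14, 9.13, 8.99 and 9.17 in mock. The lines fell into 3 levels above mock, with PLT1 at the top, PLT7 below it and PLT3, PLT4 and PLT5 together. The log2 difference from mock was 3.64 ± 0.14 in PLT1 and 2.42 ± 0.14 in PLT7. It was 1.46 to 1.55 in the other 3 lines, with 1.52 ± 0.14 (2.87-fold) within the PLT4 line.

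The 4 CYP81F genes did not move as a family. CYP81F1, CYP81F3 and CYP81F4 lie close together on chromosome 4, separated only by unnamed loci in the TAIR10.1 gene table, while CYP81F2 is on chromosome 5.

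CYP81F1, a 4-hydroxylase gene, had 10.67, 10.28 and 9.42 in PLT1, 9.0 and 9.19 in PLT3, 8.86, 8.74 and 8.83 in PLT4, 8.72, 8.59 and 8.47 in PLT5 and 9.58, 9.47 and 9.28 in PLT7, against 5.89, 5.41, 5.80 and 5.35 in mock. Mock values were near the array medians or below them, and every dex library stood far above. The log2 difference from mock was 4.51 ± 0.21 in PLT1 (4.87 ± 0.15 without the library labelled PLT1 replicate 3), 3.48 ± 0.24 in PLT3, 3.20 ± 0.21 in PLT4, 2.98 ± 0.21 in PLT5 and 3.83 ± 0.21 in PLT7. The PLT4 value, from a single genotype, is 9.19-fold.

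CYP81F2, the 4-hydroxylase gene known for its part in induced defence against fungi, was above mock in PLT1 and PLT7 and not in the other lines. It had 8.57, 8.08 and 7.67 in PLT1, 4.51 and 4.96 in PLT3, 5.90, 5.38 and 6.06 in PLT4, 5.46, 5.35 and 5.44 in PLT5 and 7.27, 7.43 and 6.98 in PLT7, against 5.26, 5.82, 5.66 and 6.08 in mock. PLT1 and PLT7 libraries lay above the mock range, PLT3 libraries below it, and PLT4 and PLT5 libraries overlapped it. The log2 difference from mock was 2.40 ± 0.22 in PLT1, 1.52 ± 0.22 in PLT7, -0.97 ± 0.25 in PLT3, 0.08 ± 0.22 in PLT4 and -0.29 ± 0.22 in PLT5.

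CYP81F3, also a 4-hydroxylase gene, stayed dim in all groups, from 3.75 in the library labelled PLT1 replicate 3 to 5.29 in PLT1 replicate 2. The mean of the dex lines differed from mock by -0.05 ± 0.18, and by 0.03 ± 0.10 without that library.

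CYP81F4, the 1-hydroxylase gene, had 10.11, 10.52 and 10.44 in PLT1, 8.59 and 8.41 in PLT3, 10.19, 10.27 and 9.86 in PLT4, 9.97, 10.01 and 9.96 in PLT5 and 9.81, 10.29 and 9.88 in PLT7, against 9.41, 8.87, 8.47 and 10.21 in mock. Mock replicate 4 was as high as most dex libraries and the mock SD was 0.750, so the mock group spans much of the gene's range. PLT3 libraries lay at the low end of mock. The difference from mock in the mean of the lines was 0.55 ± 0.21, and it ranged from 0.29 to 0.87 as single libraries were left out, lowest without mock replicate 3 and highest without mock replicate 4.

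IGMT1, an O-methyltransferase gene that acts after 4-hydroxylation, had 3.84, 3.76 and 3.68 in PLT1, 4.58 and 4.27 in PLT3, 5.90, 5.70 and 5.15 in PLT4, 5.96, 6.06 and 5.55 in PLT5 and 3.32, 3.53 and 3.55 in PLT7, against 7.05, 6.88, 6.88 and 7.39 in mock. PLT1 and PLT7 libraries were at the lower end of the array's signal, PLT4 and PLT5 libraries were between these and mock, and no dex library reached mock. The log2 difference from mock was -3.29 ± 0.17 in PLT1, -2.62 ± 0.19 in PLT3, -1.47 ± 0.17 in PLT4 (2.76-fold lower), -1.19 ± 0.17 in PLT5 and -3.58 ± 0.17 in PLT7. RMA compresses differences at values as low as these.

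Differences among the dex lines set no line against mock, the contrast that chose the genes, but their errors come from a spread shared by all 18 libraries, mock included. With the 14 dex libraries alone, 8 of the 10 genes passed the F test and 42 combinations of gene and pair were called, against 8 and 41 in the fit with mock given here. By limma's F test over the 5 dex lines, with Benjamini-Hochberg adjustment over all probe sets, 8 of the 10 genes differed, where 27.1% of all probe sets did. The exceptions were CYP81F3 (adjusted p = 0.429) and CYP79B3 (adjusted p = 0.0907). Without the library labelled PLT1 replicate 3 it was 9 of 10, where 36.7% of all probe sets differed, and CYP79B3 then had an adjusted p of 7.82e-08. The F test of CYP81F4 (adjusted p = 0.00428) did not pass without PLT3 replicate 2 (0.0637), and that of CYP81F3 passed without PLT1 replicate 2 (0.028).

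Over the 10 pairs of dex lines, 41 of 100 combinations of gene and pair were called, where 10.6% were over all probe sets, and 53 of 100 without the library labelled PLT1 replicate 3, where 16.9% were. Of the 41, 30 were also called in each fit that left out 1 library. The count by pair followed the PLT1 and PLT7 lines. PLT1 differed from PLT3, PLT4 and PLT5 in 6 genes each and from PLT7 in 5, where 14.8%, 15.4%, 25% and 8.3% of all probe sets differed. PLT7 differed from PLT5 in 6 genes, from PLT4 in 5 and from PLT3 in 4, where 17.4%, 11.5% and 9.9% of probe sets did. PLT3 differed from PLT4 in 2 genes and from PLT5 in 1, where 0.775% and 0.383% of probe sets did. PLT4 and PLT5 did not differ in any of the 10 by the limma test (2 at an unadjusted p under 0.05), where 2.12% of probe sets did, and the widest gap between them was 0.37.

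**Figure D2:**
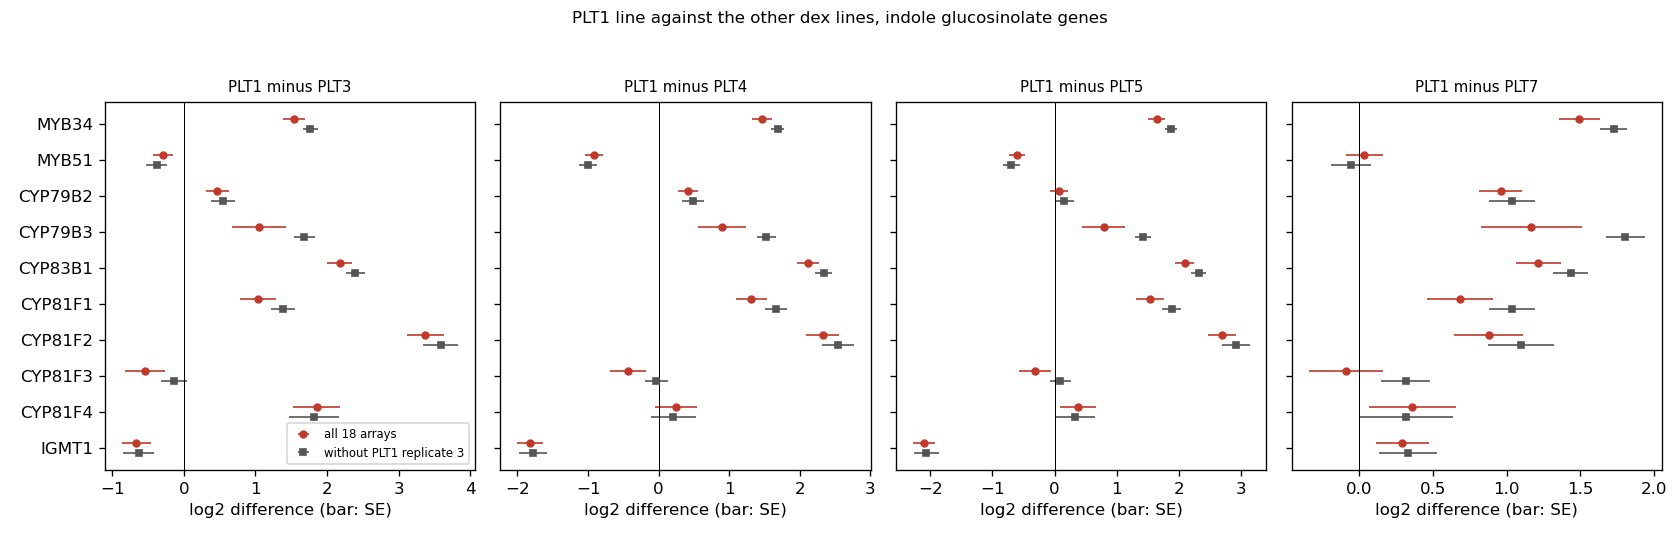
Log2 difference, PLT1 line minus each other dex line (1 panel a line), for the 10 genes. Points are differences and bars are SE, from the fit with all 18 libraries and from the fit without the library labelled PLT1 replicate 3. CYP83B1 and MYB34 lie to the right of 0 in all 4 panels, and IGMT1 to the left of it against PLT3, PLT4 and PLT5.

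MYB34 and CYP83B1 set the PLT1 line apart from every other line. MYB34 was higher in PLT1 than in PLT3 by 1.54 ± 0.16 (limma adjusted p = 7.43e-06), than in PLT4 by 1.46 ± 0.14 (3.47e-06), than in PLT5 by 1.64 ± 0.14 (6.84e-07) and than in PLT7 by 1.49 ± 0.14 (1.04e-05), and no pair of the other 4 lines was called. CYP83B1 was higher in PLT1 than in PLT3 by 2.18 ± 0.17, than in PLT4 by 2.12 ± 0.15 and than in PLT5 by 2.09 ± 0.15 (limma adjusted p = 4.93e-07, 1.67e-07 and 1.29e-07 in that order). Its difference from PLT7 was smaller, 1.22 ± 0.15 (adjusted p = 0.000113), and PLT7 was in turn higher than the other lines, with PLT3 minus PLT7 at -0.96 ± 0.17 (0.00176), PLT4 minus PLT7 at -0.90 ± 0.15 (0.000897) and PLT5 minus PLT7 at -0.88 ± 0.15 (0.000763).

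None of the PLT1 pair calls of the 10 genes was lost without the library labelled PLT1 replicate 3. PLT1 then exceeded the other lines by 1.69 to 1.87 in MYB34, 1.43 to 2.40 in CYP83B1 and 1.1 to 3.59 in CYP81F2.

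CYP79B3 was called between PLT1 and PLT7 alone when all libraries were used (1.17 ± 0.34, limma adjusted p = 0.0439), and that call was lost in 16 of the 18 fits that left out 1 library. Without the library labelled PLT1 replicate 3 it was higher in PLT1 than in each other line, by 1.68 ± 0.15, 1.53 ± 0.13, 1.42 ± 0.13 and 1.80 ± 0.13 over PLT3, PLT4, PLT5 and PLT7. CYP79B2 was lower in PLT7: PLT1 exceeded PLT7 by 0.96 ± 0.15 (limma adjusted p = 0.000635), PLT5 exceeded it by 0.88 ± 0.15 (0.000536) and PLT4 by 0.55 ± 0.15 (0.0217, lost without PLT4 replicate 1 or 2 or PLT7 replicate 1). CYP79B2 was thus lowest in a line in which CYP83B1 stood second from the top.

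CYP81F2 had the widest spread among the dex lines of the 10 genes. PLT1 exceeded PLT3 by 3.37 ± 0.26, or 10.4-fold (limma adjusted p = 4.11e-07), PLT4 by 2.32 ± 0.23 (4.91e-06) and PLT5 by 2.69 ± 0.23 (7.07e-07). PLT7 also exceeded the lines other than PLT1, with PLT3 minus PLT7 at -2.49 ± 0.26 (2.24e-05), PLT4 minus PLT7 at -1.45 ± 0.23 (0.000596) and PLT5 minus PLT7 at -1.81 ± 0.23 (5.86e-05). PLT1 and PLT7 differed by 0.88 ± 0.23 (0.0265), a call that was lost without PLT1 replicate 1 or 2 or PLT7 replicate 1 or 3.

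CYP81F1 differed less between lines. PLT1 was above PLT5 by 1.53 ± 0.22 (limma adjusted p = 0.00012), above PLT4 by 1.31 ± 0.22 (0.000762) and above PLT3 by 1.03 ± 0.25 (0.011, lost without either PLT3 library). Against PLT7 the difference was 0.68 with all libraries (adjusted p = 0.073) and 1.04 ± 0.16 without the library labelled PLT1 replicate 3 (adjusted p = 0.00014). PLT5 minus PLT7 was -0.85 ± 0.22 (0.0151), lost without PLT5 replicate 3 or PLT7 replicate 1 or 2.

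CYP81F4 was lower in PLT3 than in PLT1, PLT4 and PLT7, and PLT3 minus PLT5 was -1.48 ± 0.33 with no call (limma adjusted p = 0.073). PLT1 exceeded PLT3 by 1.86 ± 0.33 (limma adjusted p = 0.00115), and PLT3 minus PLT7 was -1.50 ± 0.33 (0.00816) and PLT3 minus PLT4 -1.61 ± 0.33 (0.0304). The last was lost without either PLT3 library or any 1 PLT4 library, and the one before it without either PLT3 library. CYP81F4 and CYP81F2 were both at their lowest in PLT3, but CYP81F4 had no call among the other 4 lines, where CYP81F2 had 5.

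IGMT1 was lowest in PLT7 and PLT1, which differed by 0.29 (limma adjusted p = 0.36), then PLT3, then PLT4 and PLT5. PLT1 minus PLT5 was -2.1 ± 0.18 (adjusted p = 6.84e-07) and PLT1 minus PLT4 was -1.82 ± 0.18 (4.36e-06). PLT4 was above PLT7 by 2.12 ± 0.18 (2.18e-06) and PLT5 above PLT7 by 2.39 ± 0.18 (5.33e-07). PLT3 minus PLT5 was -1.43 ± 0.20 (0.00265, or 0.0888 without PLT3 replicate 2), and PLT3 minus PLT7 was 0.96 ± 0.20 (0.00565, or 0.0966 without PLT3 replicate 1). The calls of PLT3 against PLT1 and PLT4 (0.0348 and 0.0105) were lost without either PLT3 library, the first also without PLT1 replicate 1 or 2 and the other without PLT4 replicate 1.

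MYB51 was lower in PLT1 and PLT7 than in PLT4 and PLT5. PLT1 minus PLT4 was -0.91 ± 0.13 (limma adjusted p = 0.000138) and PLT1 minus PLT5 -0.60 ± 0.13 (0.00246), while PLT4 exceeded PLT7 by 0.95 ± 0.13 (0.000142) and PLT5 exceeded PLT7 by 0.64 ± 0.13 (0.00219). MYB51 thus had its lowest levels in the same pair of lines as IGMT1 and in the pair with the highest CYP81F2.

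The close relatives of IGMT1 were unlike each other. IGMT1 sits beside IGMT3 in the gene table, and of IGMT2 to IGMT5 the array measured 3. IGMT2, which like IGMT1 methylates 4-hydroxylated indole glucosinolates, had 3.48, 3.52 and 3.81 in PLT1, 4.26 and 4.20 in PLT3, 5.29, 4.96 and 4.71 in PLT4, 5.13, 4.81 and 5.00 in PLT5 and 3.70, 3.36 and 3.75 in PLT7, against 5.48, 5.92, 5.76 and 5.84 in mock. It fell by 1.47 ± 0.11 (SE) in the mean of the lines (limma adjusted p = 1.69e-08) and in the PLT4 line by 0.76 ± 0.14 (0.00052), with PLT1 and PLT7 lowest as for IGMT1. Whether transcripts of IGMT1 and IGMT2 reach each other's probes was not tested.

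IGMT5, which methylates the product of CYP81F4, went the other way. It had 11.09, 11.20 and 10.92 in PLT1, 10.60 and 10.76 in PLT3, 10.77, 10.97 and 10.91 in PLT4, 10.79, 10.59 and 10.71 in PLT5 and 10.42, 10.59 and 10.71 in PLT7, against 8.99, 8.20, 8.48 and 9.71 in mock. Each dex library was above the highest mock library, mock replicate 4, in which CYP81F4 was also highest. IGMT5 rose by 1.94 ± 0.18 in the mean of the lines, or 3.82-fold (limma adjusted p = 1.68e-07), and by 2.04 ± 0.24 in the PLT4 line (5.45e-06), and it did not pass the F test among the lines (adjusted p = 0.519). IGMT4 had 3.35 to 4.31 in 17 libraries and 5.35 in the library labelled PLT1 replicate 3. It did not pass in the mean of the lines with that library (-0.29 ± 0.20, adjusted p = 0.283) and fell without it (-0.40, adjusted p = 2.39e-05).

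**Figure D3:**
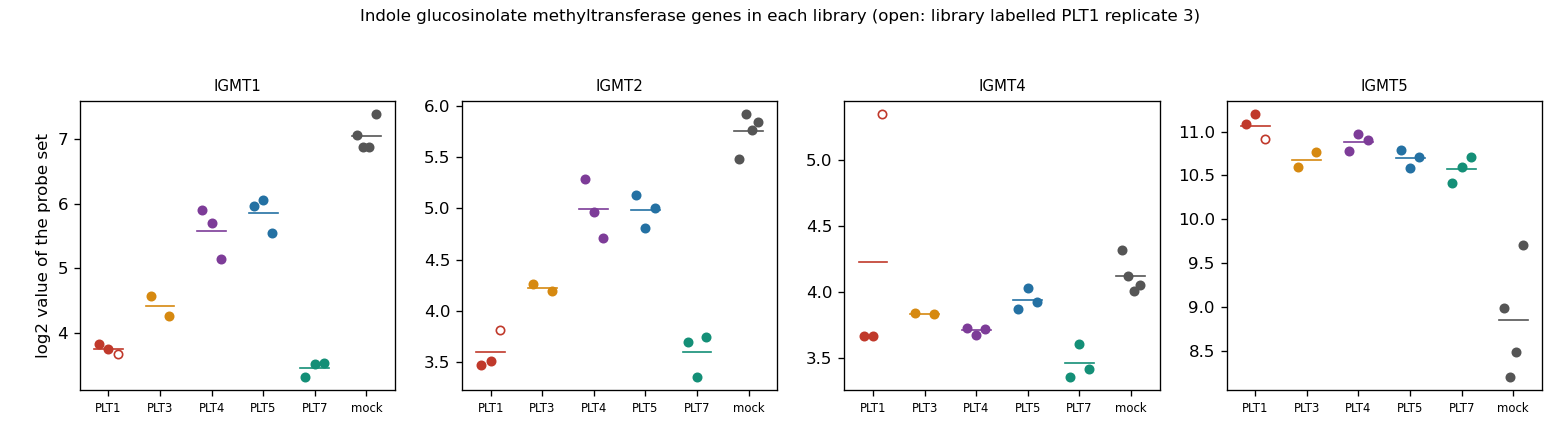
Log2 value of IGMT1, IGMT2, IGMT4 and IGMT5 (1 panel a gene) in each library, by group from left to right PLT1, PLT3, PLT4, PLT5 and PLT7 with dex and then mock. Points are libraries, bars are group means, and the open point is the library labelled PLT1 replicate 3. IGMT1 and IGMT2 lie below mock in every dex library, and IGMT5 lies above it.

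Other genes of the route were taken in 6 lists of 45 genes, of which 35 were measured. In the mean of the lines 10 rose, 11 fell and 14 did not pass, at backgrounds of 23% and 22.5%, and without the library labelled PLT1 replicate 3 the count was 10 and 14 (24.2% of all probe sets were then called lower). Among the dex lines, 23 of the 35 passed the F test, where 27.1% of all probe sets did, and 28 without that library, where 36.7% did.

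Genes that supply tryptophan were higher. All 4 measured of 6 rose in the mean of the lines, where 23% of all probe sets did. All 4 also rose within the PLT4 line, where 33.7% of all probe sets were called either way. IGPS, indole-3-glycerol phosphate synthase, had 10.41, 10.08 and 10.01 in PLT1, 8.85 and 8.87 in PLT3, 8.80, 8.93 and 9.08 in PLT4, 8.80, 8.68 and 8.84 in PLT5 and 8.85, 9.07 and 8.82 in PLT7, against 8.41, 8.33, 8.26 and 8.20 in mock. Every dex library was above every mock library, and the 3 PLT1 libraries were well above the rest. It rose by 0.83 ± 0.07 in the mean (limma adjusted p = 1.53e-07). PAT1, which adds phosphoribose to anthranilate, rose by 0.67 ± 0.06 (1.46e-07). TSA1, the tryptophan synthase alpha subunit, rose by 0.62 ± 0.07 (2.12e-06). ASA1, the anthranilate synthase alpha subunit that sets the flow into the route, rose by 0.48 ± 0.12 (0.00445), and its call in the PLT4 line was lost without mock replicate 2, 3 or 4 or any 1 PLT4 library.

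In each of the 4 pairs the PLT1 line was higher than the other line in all 4 genes, where 6.99%, 7.06%, 12.8% and 3.93% of all probe sets were called higher against PLT3, PLT4, PLT5 and PLT7. IGPS exceeded its level in those lines by 1.31 ± 0.12, 1.23 ± 0.11, 1.40 ± 0.11 and 1.25 ± 0.11 (limma adjusted p from 2.24e-07 to 4.39e-06), and by 1.39 ± 0.12, 1.31 ± 0.11, 1.48 ± 0.11 and 1.33 ± 0.11 without the library labelled PLT1 replicate 3. The count of 4 genes in each pair was the same without it. The share of all probe sets called higher in each pair is not given for that fit. Calls either way, pooled over all probe sets and the 10 pairs, were 16.9% against 10.6%. For ASA1, PLT1 exceeded PLT4 by 0.60 ± 0.18 (0.0313), a call that leaving out PLT1 replicate 1 or 2 or any PLT4 library ended. Without the library labelled PLT1 replicate 3 it was 0.92 ± 0.09 (3.71e-07).

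The shared core enzymes that follow CYP83B1, with the suppliers of sulfur donors, were mixed in the mean of the lines. There 4 of 9 rose and 1 fell, at backgrounds of 23% and 22.5%. Within the PLT4 line 2 rose and 2 fell, where 33.7% of all probe sets were called either way. APK1, a kinase that makes the activated sulfate, rose by 0.90 ± 0.07 (limma adjusted p = 6.53e-08). SOT16, the sulfotransferase of the last step, rose by 0.68 ± 0.09 (8.45e-06), and the glutathione transferase genes GSTF9 and GSTF10 went opposite ways, by 0.31 ± 0.06 (0.000501) and -0.40 ± 0.07 (0.000267). SUR1, the C-S lyase, was the fourth call (0.21 ± 0.08, 0.0466) and was lost in 13 of the 18 fits that left out 1 library. UGT74B1, the S-glucosyltransferase, and APK2 had 0.00 ± 0.08 and -0.09 ± 0.13, with no call.

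Between lines the core was higher in PLT1. The PLT1 line exceeded PLT3, PLT4 and PLT5 in 8 of 9 genes each and PLT7 in 9 of 9. Of all probe sets 6.99%, 7.06%, 12.8% and 3.93% were called higher in those pairs. The counts were equal without the library labelled PLT1 replicate 3. Calls either way, pooled over all probe sets and the 10 pairs of lines, were then 16.9%, against 10.6% with it. The share called higher in each pair is not given for that fit. UGT74B1, level in the mean, had 9.37, 9.79 and 9.23 in PLT1, 8.50 and 8.60 in PLT3, 8.16, 8.37 and 8.16 in PLT4, 8.42, 8.51 and 8.46 in PLT5 and 7.79, 7.77 and 7.77 in PLT7, against 8.54, 8.53, 8.57 and 8.33 in mock. PLT1 stood above mock and PLT7 below it. PLT1 exceeded PLT7 by 1.69 ± 0.11 (limma adjusted p = 3.64e-07). APK2 had the widest such gap, 2.16 ± 0.18 (4.39e-06), and APK1 exceeded its level in PLT4 by 1.89 ± 0.11 (2.07e-08). With the library labelled PLT1 replicate 3 left out, these were 1.81 ± 0.11, 2.46 ± 0.12 and 1.93 ± 0.12.

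Other regulators of the route were mixed. Of 6 measured, 1 rose and 2 fell in the mean of the lines, where 23% and 22.5% of all probe sets did. MYC4 rose by 0.76 ± 0.11 (limma adjusted p = 3.71e-05). MYC2 and MYC3, which like MYC4 bind to the MYB regulators, fell by 0.43 ± 0.11 (0.00452) and 0.35 ± 0.09 (0.00429). MYC3 was dim, with group means from 4.17 to 4.61. MYB122, a relative of MYB34, and DOF1.1 had -0.08 ± 0.08 and -0.14 ± 0.12, with no call.

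Genes downstream of the finished compounds were lower or not called in the mean of the lines. Of 8 measured genes of transport and breakdown, 4 fell in that mean, where 22.5% of all probe sets were called lower, and none rose by the limma test, nor at an unadjusted p under 0.05. With the library labelled PLT1 replicate 3 left out, 6 fell, where 24.2% did, with ESP and BGLU18 added. In a single line GTR1, a glucosinolate transporter gene, rose in PLT1 by 0.83 ± 0.21 (limma adjusted p = 0.00376), or by 0.45 ± 0.13 without that library, and without it also in PLT7 by 0.45 ± 0.12 (0.00356). PEN2, the atypical myrosinase that acts on indole glucosinolates in defence, had 8.22, 8.13 and 8.83 in PLT1, 9.20 and 9.40 in PLT3, 9.34, 9.35 and 9.09 in PLT4, 9.57, 9.63 and 9.49 in PLT5 and 8.55, 8.56 and 8.77 in PLT7, against 9.87, 9.85, 10.12 and 10.08 in mock. All dex libraries lay below mock, with PLT1 and PLT7 lowest. It fell by 0.95 ± 0.10 (limma adjusted p = 1.12e-06). NSP5, a nitrile specifier, fell by 0.89 ± 0.14 (4.52e-05), the glucosinolate transporter GTR2 by 0.52 ± 0.16 (0.0115, lost without mock replicate 4) and the exporter PEN3 by 0.48 ± 0.10 (0.000806). PYK10, an abundant root beta-glucosidase, had -0.03 ± 0.05. ESP, the epithiospecifier gene, had -1.17 ± 0.98 with no call and -0.61 (adjusted p = 2.04e-08) without the library labelled PLT1 replicate 3.

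The branch that takes the aldoxime to camalexin and auxin had 5 of 7 genes measured. In the mean of the lines 3 fell, where 22.5% of all probe sets were called lower. Within the PLT4 line 0 of the 5 were called with all libraries, where 33.7% of all probe sets were called either way. Without the library labelled PLT1 replicate 3, 1 was called lower there. NIT3, a nitrilase, fell by 0.50 ± 0.17 (limma adjusted p = 0.0208, lost without mock replicate 2 or 3). The camalexin genes CYP71B15 and CYP71A12, both dim, fell by 0.29 ± 0.08 and 0.23 ± 0.07. The CYP71A12 call was lost in 1 of the 18 fits that left out 1 library.

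**Figure D4:**
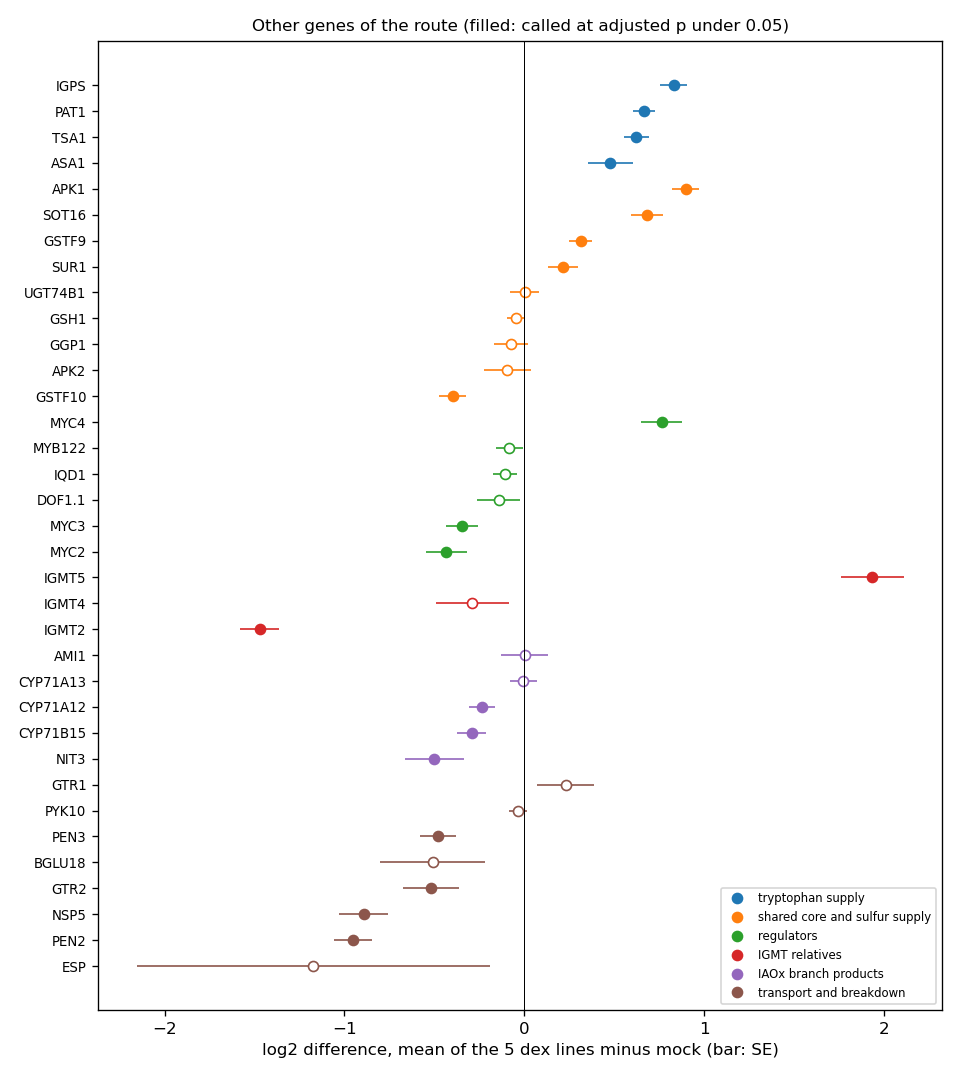
Log2 difference, mean of the 5 dex lines minus mock, for other genes of the route grouped by list. Points are differences and bars are SE, and filled points passed limma at an adjusted p under 0.05. IGMT5 lies farthest to the right at 1.94 and IGMT2 farthest to the left among filled points at -1.47.

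Neighbours in the CYP81 family outside CYP81F did not share the height of CYP81F1. Of 13 listed, 9 were measured, 5 fell in the mean of the lines, where 22.5% of all probe sets did, and none rose by the limma test, nor at an unadjusted p under 0.05. CYP81H1 fell by 1.32 ± 0.07 (limma adjusted p = 1.23e-09) and CYP81D11, known to respond to jasmonate and foreign chemicals, by 1.54 ± 0.27 (0.00015). CYP81D4 and CYP81D1 fell by 0.73 ± 0.10 and 0.60 ± 0.07. The remaining call, CYP81D8, was lost in 12 of the 18 fits that left out 1 library. CYP81D5 and CYP81D3 had 0.15 ± 0.17 and 0.09 ± 0.07, with no call.

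**Figure D5:**
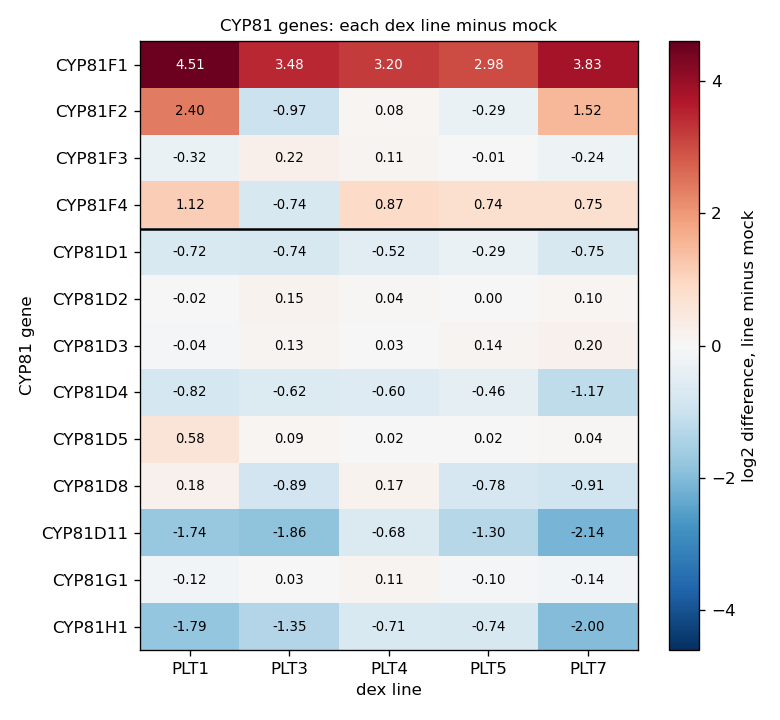
Log2 difference of each measured CYP81 gene in each dex line minus mock, with lines as columns, genes as rows and colour for the difference. CYP81F1 is 2.98 to 4.51 above mock in every line, CYP81F2 differs in sign between lines, and CYP81H1 is below mock in each.

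The methionine-derived aliphatic glucosinolates share core enzymes with the indole route. Of 13 measured of 16 genes of that branch, 10 fell, where 22.5% of all probe sets did, and none rose in the mean of the lines (none at an unadjusted p under 0.05 either), with a median log2 difference of -1.01. By line, 10 were called lower in PLT1, 4 in PLT3, 9 in PLT4, 2 in PLT5 and 8 in PLT7, and 1 was called higher in PLT1. Of all probe sets 48.3%, 25.6%, 33.7%, 22.9% and 43.2% were called either way in those lines. The share called lower alone is not given by line. AOP2, a side-chain enzyme, fell by 2.56 ± 0.18 (limma adjusted p = 1.1e-08) and MYB28, its main regulator, by 1.56 ± 0.26 (0.000101), and MAM1 and CYP83A1, the aliphatic counterpart of CYP83B1, by 1.69 ± 0.32 and 1.63 ± 0.22. The call of MYB29, which was dim, was lost in 6 of the 18 fits that left out 1 library. AOP2 was lower in PLT1 than in PLT5, with -4.36 between them (2.07e-08), or -4.11 without the library labelled PLT1 replicate 3, where CYP83B1 differed by 2.09. Jasmonate genes, which are known to act on both branches, had 3 of 5 lower in the mean of the lines, against the same 22.5%. None was higher (none at an unadjusted p under 0.05 either). LOX2 had -1.31 ± 0.39 (limma adjusted p = 0.0121, not called without mock replicate 4), AOS -1.03 ± 0.10 and JAZ1 -0.98 ± 0.13. By line, 3 of the 5 were called lower in PLT1, 1 each in PLT3, PLT4 and PLT5, and 4 in PLT7. The backgrounds by line are those above, which count calls either way.

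The probe sets nearest to CYP81F1 and to IGMT1 were found by the root mean square distance of their 5 log2 differences from mock, over the 5 dex lines. These differences share the mock libraries. Nearest to CYP81F1 were ELIP2, an early light-induced protein gene, at 0.317, the auxin synthesis gene YUC8 at 0.673, CRF3, a cytokinin response factor gene, at 0.732 and CHX16, a cation exchanger gene, at 1.00. ELIP2 had 4.54, 3.51, 3.01, 2.78 and 3.18 in PLT1, PLT3, PLT4, PLT5 and PLT7. Nearest to IGMT1 were AGP7, an arabinogalactan protein gene, at 0.438, PELPK1 at 0.460, PSK4, a phytosulfokine precursor gene, at 0.478 and the wall enzyme gene XTH17 at 0.497. Without the library labelled PLT1 replicate 3 the same 4 were nearest to CYP81F1, and for IGMT1 CYP71B7 took the place of AGP7.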

How the data were processed

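Total RNA of whole seedlings was labelled with biotin and hybridised to 18 arrays. The values deposited by the authors are log2 signals, array by array, and RMA and limma 3.24.15 are named per the submitters' processing notes. RMA brings arrays to a common distribution, so a change shared by most genes is removed and dim differences are compressed. The table has no detection calls and the sources used here name no genome build, so no coordinates are given. Of 21494 rows, 64 controls were left out, and of 21430 probe sets 21231 matched a TAIR10.1 locus, used for names and neighbours. None of the 10 genes has values identical to another probe set.

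Groups came from the sample titles. 1 limma fit (limma 3.58.1, R 4.3.3) had 6 group means and no covariate, with two-sided moderated tests, Benjamini-Hochberg adjustment over 21430 probe sets and a threshold of 0.05. It was tested on simulated data. Errors are SE of the fit unless SD is written. The members and lists were chosen with earlier results of these data known. Named genes are the members, up to 4 called (by size) and 2 uncalled genes of a list, and the 4 nearest profiles. SUR1, GTR1, BGLU18, CYP81D8 and MYB29 were named after their values were seen. The alternatives were each library left out, replicate block, quantile normalisation, array weights, trended robust variance, dim probe sets left out and dex arrays alone. Same-numbered libraries did not deviate together (mean correlation 0.000873, from -0.162 to 0.236).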

Additional observations from a re-analysis of the deposited data

Results flagged for a closer look

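For 8 of the 10 genes the level differed among the 5 dex lines, where 27.1% of all probe sets did. The test was limma's F test with adjustment over all probe sets. It compares levels in dex, so line differences without dex and differences in response cannot be told apart. The adjusted p was 1.74e-07 for CYP83B1, 2.07e-07 for IGMT1, 3.54e-07 for CYP81F2 and 1.52e-06 for MYB34. It was 0.000123 for MYB51, 0.000599 for CYP81F1, 0.000763 for CYP79B2 and 0.00428 for CYP81F4. For CYP83B1, MYB34, CYP81F1 and CYP81F2 the PLT1 line had the highest mean. For CYP81F1 its difference from PLT7 was not called with all libraries (0.68, limma adjusted p = 0.073). The PLT7 and PLT1 lines were lowest for IGMT1 and MYB51, the PLT3 line for CYP81F2 and the PLT7 line for CYP79B2.

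In mock, CYP81F3 had 5.12 in replicate 1 and 4.79 to 4.82 in the other 3 libraries, a gap of 0.911 of the group's range. Chance alone marks about 1 in 20 groups this way.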

How the results depend on the processing

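Over 22 other settings, the differences of MYB34, CYP83B1, CYP81F1, CYP79B3, CYP81F2 and CYP81F4 from mock kept their sign above 0 and those of MYB51 and IGMT1 below 0. CYP79B2 (0.03) was -0.00327 without mock replicate 1, -0.0129 without mock replicate 2 and -5.34e-05 under quantile normalisation. CYP81F3 (-0.05) was 0.0311 without mock replicate 1, 0.0337 without PLT1 replicate 3, 0.0272 with array weights and 0.00984 under quantile normalisation. Leaving out single libraries moved them between -0.0129 and 0.101 and between -0.120 and 0.0337, and the cause was not tested. Array weights raised the probe sets passing the F test to 8880, against 5807. With dim probe sets left out, 7 route genes were lower against 11, with fewer genes tested. Leaving out single libraries gave 8921 to 10735 probe sets called against mock, 4729 to 7861 by the F test, 6 to 8 of the 10 genes called against mock, 7 to 9 by the F test, 34 to 53 pair calls, and 9 to 10 route genes higher and 9 to 14 lower. With the replicate number as a replicate block there were 8836 and 5804 probe sets called, 8 of the 10 genes against mock, 8 by the F test and 43 pair calls, with 9 route genes higher and 10 lower. The numbers are not shown to pair the libraries. The library labelled PLT1 replicate 3 decides the CYP79B3 result, and the 2 PLT3 libraries limit every PLT3 comparison. Dim genes (MYB51, CYP81F3, IGMT1 in PLT1 and PLT7) are limited by signal over background. The same limit holds for dim genes of the other lists. Among them are MYC3, IGMT4, CYP81D1, CYP71A12, CYP71B15 and MYB29, and IGMT2 in PLT1 and PLT7.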

Other observations

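The library labelled PLT1 replicate 3 differed from all others in some genes of glucosinolate breakdown and transport. ESP, the epithiospecifier gene, had 4.08 in it and 12.15 to 13.18 in the other 17 libraries. GTR1, a glucosinolate transporter gene, had 8.52 in it and 6.62 to 7.51 in the others. BGLU18, a beta-glucosidase gene, had 7.28 in it and 3.95 to 5.96 in the others. PLT1 replicates 1 and 2 had 12.47 and 12.60 for ESP, 7.26 and 7.49 for GTR1 and 5.27 and 5.01 for BGLU18.

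The 4 mock libraries spread alike for CYP81F4 and IGMT5, the genes of successive steps of the 1-methoxy branch. CYP81F4 had 10.21 and IGMT5 9.71 in mock replicate 4, 9.41 and 8.99 in replicate 1, 8.87 and 8.20 in replicate 2, and 8.47 and 8.48 in replicate 3, so that replicates 4 and 1 were the highest in both, while replicates 2 and 3 were in opposite order. No test was made on 4 libraries.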
